A study of Homo sapiens with 6 samples.

Results

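The H3K9me3 peaks of 4 gene-free windows around the centromeres of chromosomes 3, 4, 6 and 8 were described in BJ, an established human skin fibroblast line. The members are the peaks of each H3K9me3 peak list whose midpoint lies in 1 of these windows. The PURPL guide 1 list had 1737 such peaks of 14087 on chromosomes 1 to 22 and X, the PURPL guide 2 list 1802 of 11721, and the control list 1450 of 22627. The windows were picked because both guides had more but narrower peaks there than the control, so peak numbers and widths below describe that choice and test nothing.

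H3K9me3 is the trimethylation of lysine 9 on histone H3. It is set by methyltransferases such as SUV39H1, SUV39H2 and SETDB1 and is bound by HP1 proteins, which compact chromatin. Around human centromeres the DNA is built from tandem satellite repeats, and the heterochromatin on these repeats carries the mark over long distances. In the GRCh38 build most centromere arrays are modelled repeat sequence, so reads of one repeat can match many places.

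The lines were made by CRISPR interference, which lowers transcription with a repressor that a guide RNA directs to its target. The groups were cells with PURPL guide 1, cells with PURPL guide 2, both aimed at the p53-induced long non-coding RNA gene PURPL, and cells with a control guide. The 6 samples are an H3K9me3 library and an input library for each of the 3 cell lines, from chromatin fixed with 1% formaldehyde for 10 min. With 1 library per cell line no difference has a replicate check, and guide and library cannot be told apart. In such bulk chromatin, fewer cells with the mark and less mark per cell cannot be told apart either. Read depth is unknown. PURPL lies on chromosome 5, outside the windows, and how far each guide lowered its transcript was not analysed here.

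The windows cover 9.74 Mb in total and hold 0 annotated genes. The chromosome 3 window runs from 91513776 to 93843763 (GRCh38, 2.33 Mb), between the transcribed pseudogene LOC101930420 and the small nuclear RNA pseudogene RNU6-488P. On chromosome 4 it runs from 49589729 to 51833883 (2.24 Mb), between the pseudogene SNX18P25 and DCUN1D4, a protein-coding gene of the neddylation pathway. The chromosome 6 window, from 58121086 to 60281437 (2.16 Mb), lies between the pseudogenes RBBP4P4 and PRIM2BP. On chromosome 8 the window spans 43540928 to 46549088 (3.01 Mb), between the pseudogenes CYP4F44P and HSPA8P13. The gene table used here marks no centromere, so that position is background knowledge. Broad peaks were common here. The windows held 41.9% of the guide 1 peaks of at least 5000 bp, 52.2% of such guide 2 peaks and 33.8% of such control peaks on chromosomes 1 to 22 and X.

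In every window the mark was called as more and narrower peaks in both PURPL lines, over a shorter total length. On chromosome 3 there were 530 peaks with guide 1, 504 with guide 2 and 460 in the control, with mean widths of 1639, 1383 and 2828 bp. Chromosome 4 was close to it, with 521 guide 1, 506 guide 2 and 458 control peaks of 1506, 1442 and 2604 bp. These windows held the narrower peaks of the 4. Chromosome 6 had the fewest peaks, 285 with guide 1, 319 with guide 2 and 210 in the control, and the widest control peaks, with means of 2763, 2173 and 4678 bp. On chromosome 8 the 401 guide 1, 473 guide 2 and 322 control peaks measured 2837, 2047 and 4366 bp on average. Of all 23 gene-free stretches with at least 100 control peaks, 26.1% had more peaks in both guides than in the control, which is the pattern that chose these windows. Limited to peaks of at least the pooled median score, the direction of the number turned, with 987 guide 1, 893 guide 2 and 1134 control peaks.

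The length under peaks was 869 kb with guide 1, 697 kb with guide 2 and 1301 kb in the control on chromosome 3, and 784, 729 and 1193 kb on chromosome 4. For chromosome 6 it was 787 kb with guide 1, 693 kb with guide 2 and 982 kb in the control, and for chromosome 8 1138, 968 and 1406 kb. Relative to the control length guide 1 had 66.8% on chromosome 3, 65.8% on chromosome 4, 80.2% on chromosome 6 and 80.9% on chromosome 8. For guide 2 these shares were 53.6%, 61.2%, 70.6% and 68.9%, so both guides were lower on chromosomes 3 and 4. Over the 4 windows this came to 73.3% with guide 1 and 63.3% with guide 2. In the 19 other gene-free stretches together the shares were lower, at 59.8% and 53.0%. Single stretches among them ranged from 17.9% to 77.7% with guide 1 and from 21.9% to 69.8% with guide 2. Over chromosomes 1 to 22 and X the length was 16.95 Mb with guide 1, 13.05 Mb with guide 2 and 32.34 Mb in the control. A shorter length was thus not particular to the windows. The windows took up 21.1% of all length under guide 1 peaks, 23.7% under guide 2 peaks and 15.1% under control peaks.

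**Figure D1:**
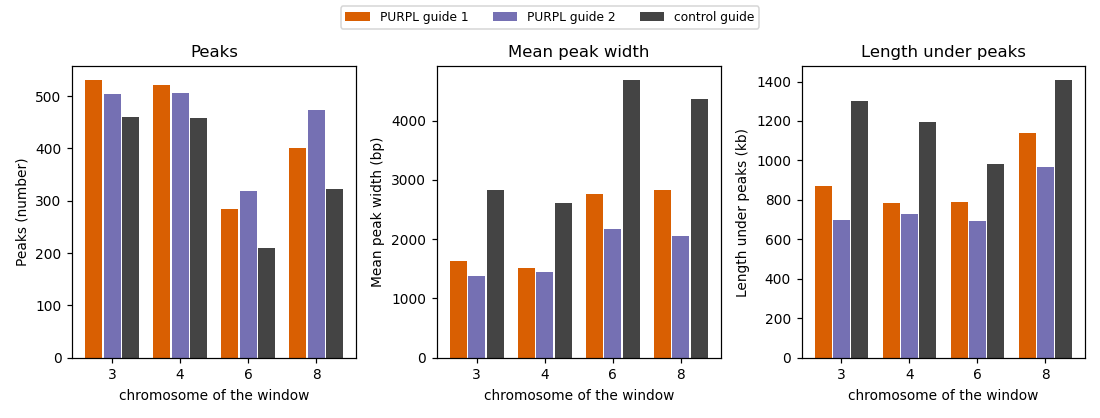
Number of H3K9me3 peaks, mean peak width (bp) and length under peaks (kb) in the 4 windows; each bar is the 1 library of PURPL guide 1, PURPL guide 2 or the control guide. On chromosome 6 the numbers are 285, 319 and 210 and the mean widths 2763, 2173 and 4678 bp.

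The whole width distribution lay lower in the PURPL lines. Median width was 1429 bp with guide 1, 1183 bp with guide 2 and 2218.5 bp in the control, and the 90th percentile was 4539, 3868 and 7821 bp. Peaks under 1000 bp made up 35.8% of the guide 1 members, 41.8% of the guide 2 members and 23.9% of the control members. Peaks of at least 5000 bp numbered 130 with guide 1, 93 with guide 2 and 316 in the control, and those of at least 10000 bp numbered 16, 4 and 79. On chromosomes 3 and 4, peaks of at least 5000 bp numbered 14 and 13 with guide 1, 9 and 12 with guide 2, and 75 and 66 in the control. On chromosomes 6 and 8 they numbered 40 and 63 with guide 1, 31 and 41 with guide 2, and 72 and 103 in the control. The narrowest peak of the whole list was 218 bp with guide 1, 219 bp with guide 2 and 225 bp in the control. Neighbouring peaks were never closer than 874, 880 and 902 bp, so shorter breaks in the mark are not visible in these lists.

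With peaks joined across gaps of up to 20 kb, the outer limits of the main domains were nearly the same in the 3 lists. The main domain of chromosome 6 then ran from 58557462 to 59829620 with guide 1, from 58557518 to 59829750 with guide 2, and from 58554182 to 59829830 in the control. These domains measured 1272, 1272 and 1276 kb. Peaks filled 61.9% of the domain with guide 1, 54.5% with guide 2 and 76.9% in the control. The lower coverage of the PURPL lines on chromosome 6 thus lay inside a domain of nearly the same extent at this joining distance. The distance of 20 kb was chosen after seeing the data. Joined across up to 5 kb, the longest domain of chromosome 6 measured 693 kb with guide 1, 574 kb with guide 2 and 1276 kb in the control. In the other windows, too, the longest domain at 5 kb was that of the control.

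The other windows had the same arrangement with joining across up to 20 kb. On chromosome 8 the joined domain measured 1841 kb with guide 1, 1838 kb with guide 2 and 1838 kb in the control, of which 61.2%, 52.4% and 75.2% lay under peaks. On chromosome 3 it measured 2109 kb with guide 1, 2104 kb with guide 2 and 2107 kb in the control, filled to 40.9%, 32.9% and 61.3%. On chromosome 4 the lengths were 2034, 2032 and 2034 kb and the filled shares 38.04%, 35.7% and 57.9%. The domains of chromosomes 3 and 4 were therefore longer and more sparsely filled in every list than those of chromosomes 6 and 8. With joining across up to 10 kb, the lengths on chromosomes 6 and 8 were the same as at 20 kb in every list. On chromosomes 3 and 4 only those of the control were the same. There the longest domain measured 1226 kb with guide 1, 1008 kb with guide 2 and 2107 kb in the control on chromosome 3, and 934, 1379 and 2034 kb on chromosome 4.

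Along the domains the lower coverage was spread out and not held by a few places. Of 193 bins of 50 kb, 166 had control coverage, and coverage was lower than in the control in 163 of these with guide 1 and in 165 with guide 2. More peaks over less length were found in 109 of the 166 bins with guide 1 and in 108 with guide 2. Coverage was higher with guide 1 than with guide 2 in 123 of them. The highest coverage of any bin was 81.8% with guide 1, 71.1% with guide 2 and 94.03% in the control. Neighbouring bins share a library and are no replicates.

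**Figure D2:**
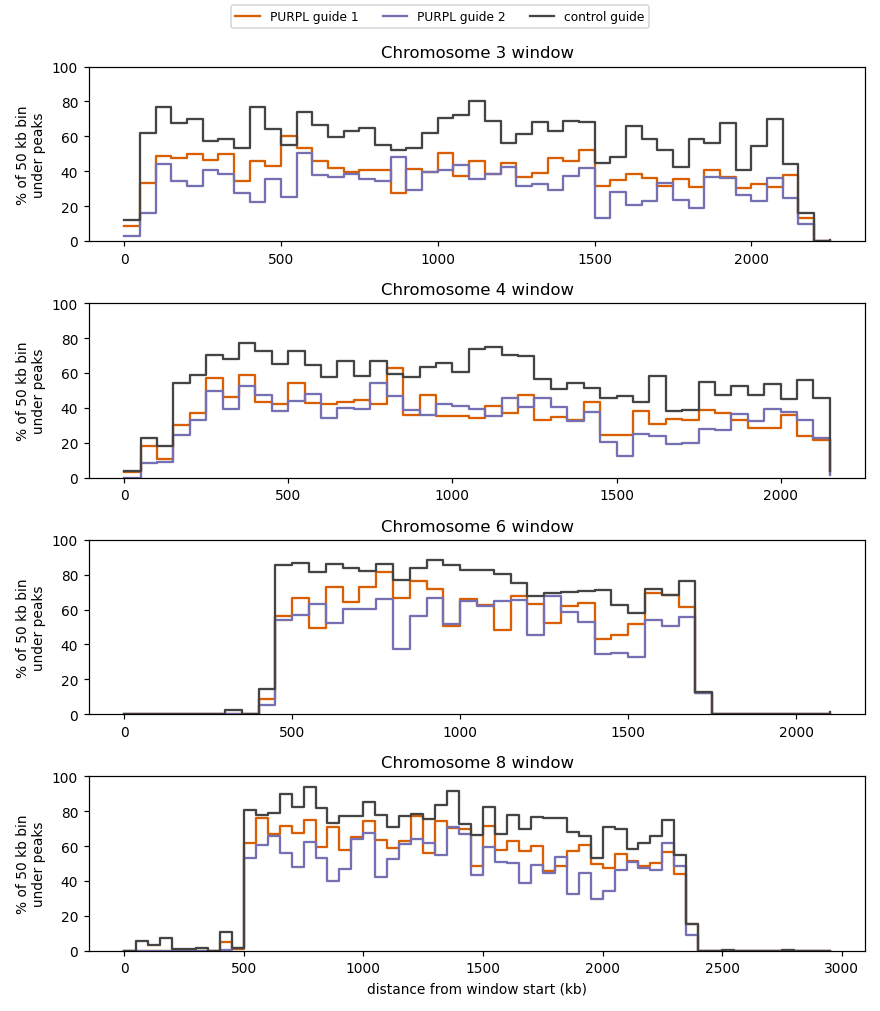
Share of each 50 kb bin under H3K9me3 peaks (%) against the distance from the window start (kb), 1 line per library. The main domain edges of the 3 lists fall at nearly the same places in each window, and the control line lies highest in most bins.

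Joining peaks across longer gaps brought the lengths together, while the numbers first moved apart and then changed order. Joined across up to 2 kb, the windows held 676 domains with guide 1, 778 with guide 2 and 396 in the control. Joined across up to 5 kb, there were 105, 132 and 43 domains, and their length reached 92.1% of the control with guide 1 and 88.5% with guide 2. Across up to 10 kb the numbers were 13 with guide 1, 21 with guide 2 and 24 in the control, with 98.7% and 96.7% of the control length. The mean domain over the 4 windows was then wider in the PURPL lines. It measured 558388 bp with guide 1, 338568 bp with guide 2 and 306308 bp in the control. This did not hold on chromosomes 3 and 4. On chromosome 3 the mean was 700953 bp with guide 1, 200937 bp with guide 2 and 705126 bp in the control. On chromosome 4 the means were 337000, 282639 and 686769 bp. The domains numbered 3, 10 and 3 on chromosome 3 and 6, 7 and 3 on chromosome 4. The control count over the 4 windows then held many small peaks outside the main domains, above all on chromosome 8. There it was 15 against 3 in each guide. Gaps of at most 2000 bp made up 61.2% of the gaps between neighbouring guide 1 members, 57.0% for guide 2 and 72.9% for the control.

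**Figure D3:**
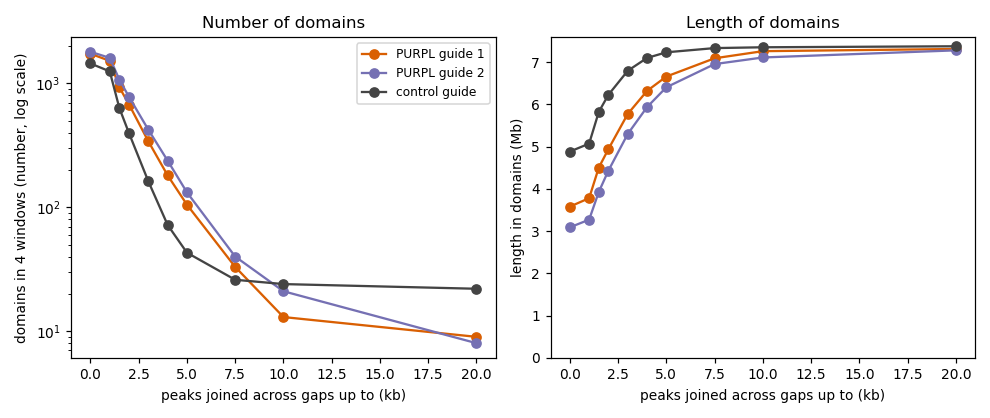
Number of domains (log scale) and their length (Mb) in the 4 windows together, after peaks of a list were joined across gaps up to the distance on the x axis (kb). At 10 kb the PURPL lines reach 98.7% and 96.7% of the control length.

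Wide control peaks were usually represented by several guide peaks. A control peak held a guide peak if they overlapped by at least 1 bp, so guide peaks could run past its edges. Of 316 control peaks of at least 5000 bp, 79.1% held 2 or more guide 1 peaks (95% Wilson interval 74.3 to 83.2) and 82.3% held 2 or more guide 2 peaks (77.7 to 86.1). Over chromosomes 1 to 22 and X these shares were 75.1% for guide 1 and 70.9% for guide 2. At scores of at least 22 the shares in the windows were 42.9% for guide 1 and 37.99% for guide 2. The intervals cover counting error only, and neighbouring peaks are not independent. Of the 79 control peaks of at least 10000 bp, 61 held 3 or more guide 1 peaks and 70 did so for guide 2. Counts of 3 or more outside the windows are not given here. Up to 7 guide 1 and 8 guide 2 peaks overlapped 1 control peak. Of these 79, 92.4% held 2 or more guide 1 peaks and 96.2% held 2 or more guide 2 peaks. In the 19 other gene-free stretches with at least 100 control peaks, these shares were 95.5% and 97.7% of 44. Every control peak of at least 5000 bp in the windows overlapped a guide 1 peak, and all but 1 overlapped a guide 2 peak. Control peaks of 1000 to 5000 bp held 2 or more guide 1 peaks in 21.2% of cases and 2 or more guide 2 peaks in 20.8%. In the 19 other stretches these shares were 10.7% and 10.05%. With the longest single guide peak taken alone, a control peak of at least 10000 bp was covered to 40.7% on average by guide 1 and to 34.2% by guide 2.

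The widest control peaks of each window are examples of this splitting. They were picked for their width in windows chosen for narrower guide peaks, so they add no support to it. On chromosome 6 the control peak at 58607065 to 58628577 measured 21513 bp and held 5 guide 1 peaks over 17062 bp and 5 guide 2 peaks over 14110 bp. The next were at 59034373 to 59054540 (20168 bp), with 5 peaks of each guide over 14411 and 13413 bp, and at 59061134 to 59081247 (20114 bp), with 4 guide 1 and 5 guide 2 peaks over 12657 and 13322 bp. On chromosome 8 the widest control peak, 26234 bp at 44317196 to 44343429, held 7 peaks of each guide over 18385 and 15808 bp. It was followed by 24628 bp at 44879051 to 44903678, with 7 guide 1 and 5 guide 2 peaks over 14983 and 16936 bp. The third, 21218 bp at 44294467 to 44315684, held 4 guide 1 and 6 guide 2 peaks over 17897 and 15508 bp. Each guide covered between 60.3% and 84.3% of the length of these 6 peaks.

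Inside the widest control peaks of chromosomes 3 and 4, each guide covered between 18.5% and 64.4% of the length. The control peak of 15737 bp at 92283439 to 92299175 on chromosome 3 held 4 peaks of each guide, over 6478 bp with guide 1 and 7629 bp with guide 2. At 91918421 to 91932920, a control peak of 14500 bp held 4 guide 1 peaks over 6927 bp and 3 guide 2 peaks over 2684 bp. At 92946979 to 92960594, one of 13616 bp held 4 peaks of each guide over 8768 and 6946 bp. The widest control peak of chromosome 4, 18375 bp at 50760249 to 50778623, held 6 guide 1 peaks over 6479 bp and 4 guide 2 peaks over 10306 bp. The next, 13871 bp at 49953463 to 49967333, held 4 guide 1 and 3 guide 2 peaks over 8883 and 8147 bp. The third, 12363 bp at 50440895 to 50453257, held 3 and 6 peaks over 5638 and 5808 bp. Which guide covered more of a control peak thus differed from peak to peak.

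**Figure D4:**
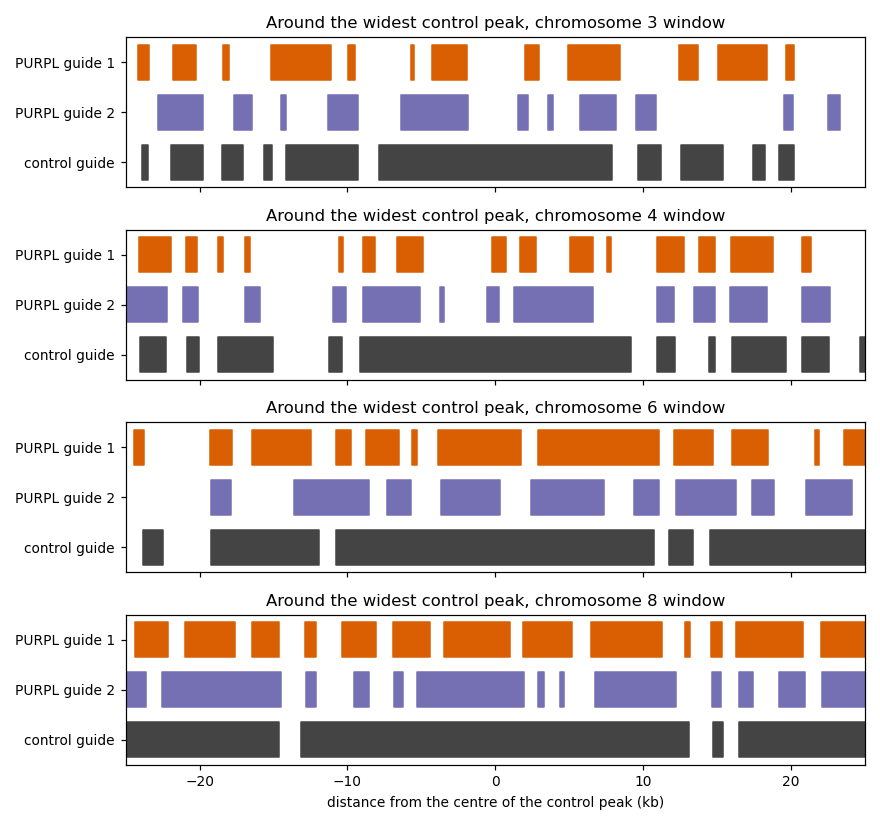
Peaks of the 3 lists around the widest control peak of each window; the x axis is the distance from its centre (kb) and each bar is 1 peak. The control peaks of 15737, 18375, 21513 and 26234 bp lie over 4 to 7 peaks of guide 1 and 4 to 7 of guide 2.

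Widest peaks of the guides were not always copies of wide control peaks. The widest guide 1 peak on chromosome 8, 21812 bp at 44852848 to 44874659, joined 4 control peaks and held 7 guide 2 peaks. On chromosome 6 the guide 1 peak of 20953 bp at 58901309 to 58922261 overlapped 2 control peaks and 5 guide 2 peaks. On chromosome 3 the guide 1 peak of 10175 bp at 92892560 to 92902734 overlapped 2 control peaks, and on chromosome 4 that of 7149 bp at 50424229 to 50431377 also overlapped 2. The widest guide 2 peaks measured 9048 bp on chromosome 3 (92838130 to 92847177), 8430 bp on chromosome 4 (49855370 to 49863799), 11950 bp on chromosome 6 (58770355 to 58782304) and 10719 bp on chromosome 8 (44576680 to 44587398). On chromosomes 3, 4 and 8 each overlapped a single control peak, and on chromosome 6 it overlapped 2. Over the windows, 181 guide 1 peaks (10.4%) and 117 guide 2 peaks (6.49%) overlapped 2 or more control peaks, against 3.56% and 3.23% over chromosomes 1 to 22 and X. Splitting therefore also ran from guide to control. In the other direction, 417 of the 1450 control peaks (28.8%) overlapped 2 or more guide 1 peaks. For guide 2 the number was 424 (29.2%). The share over all control peaks is not given here, and how far peak width sets these shares was not tested.

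Control length that no guide peak covered lay mainly inside control peaks that a guide still marked. Of the 1869 kb of control length not under guide 1 peaks, 48.2% lay in breaks between guide 1 peaks within 1 control peak, 41.5% at the ends of overlapped control peaks and 10.3% in control peaks with no guide 1 peak. For guide 2 the uncovered length was 2241 kb, of which 45.5% lay in breaks, 42.8% at ends and 11.7% in whole peaks. The parts differed between windows. Breaks held 64.8% of the uncovered length with guide 1 and 65.7% with guide 2 on chromosome 6, and 59.3% and 57.0% on chromosome 8. They held 38.98% and 31.2% on chromosome 3, and 41.8% and 40.8% on chromosome 4, where ends took up more. The median break measured 1190 bp with guide 1 (619 breaks) and 1305 bp with guide 2 (667 breaks), and the longest 4831 and 6308 bp.

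Few control peaks of the windows went without any guide peak. Guide 1 overlapped 85.6% of them by at least 1 bp (Wilson interval 83.7 to 87.3) and guide 2 81.9% (79.8 to 83.8). Of all control peaks on chromosomes 1 to 22 and X, 42.8% and 36.2% were overlapped. In the 19 other gene-free stretches together the shares were 62.7% and 58.3%. Among these, the stretch of chromosome 20 had 88.0% and 85.7%, and that of chromosome 15 had 81.6% and 74.5%. Peaks of both guides overlapped 1089 of the 1450 control peaks (75.1%), against 29% of all control peaks. Neither guide overlapped 111 (7.66%), against 50.1% of all. Guide 1 peaks covered 36.7% of the window bases and guide 2 peaks 31.7%, and how far this coverage sets the overlap was not tested. The 111 were narrow, with a median of 574 bp, a median score of 20 and 79.7 kb in all. The widest of them lay at 59523018 to 59525389 on chromosome 6 (2372 bp), 51692009 to 51694031 on chromosome 4 (2023 bp) and 93277120 to 93279068 on chromosome 3 (1949 bp).

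Width went with the fate of a control peak. Control peaks with no guide 1 peak had a median width of 750 bp, those with 1 guide 1 peak 1739 bp and those with 2 or more 5647 bp. For guide 2 the medians were 732, 1776 and 5779.5 bp. Under 1000 bp, 61.7% of the control peaks were overlapped by guide 1 and 51.01% by guide 2. A wider peak has more room to be overlapped, so this is a description. The 363 control members of lowest score, from 10 to 22, were overlapped in 68.04% of cases by guide 1 and 61.4% by guide 2. For the 363 of highest score, from 34 to 1373, the shares were 92.01% by guide 1 and 88.98% by guide 2. Median width was 1065 bp in the lowest group and 2688 bp in the highest, so score and width were not separated.

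Most guide peaks lay on control peaks. Wholly inside a control peak lay 48.1% of the guide 1 members (Wilson interval 45.8 to 50.5) and 54.1% of the guide 2 members (51.7 to 56.3). Of all peaks of these lists, 36.6% and 42.8% did. In the 19 other gene-free stretches together these shares were 38.8% and 41.9%. Among these, the stretch of chromosome 15 had 50.7% and 53.3%, and that of chromosome 20 had 48.8% and 57.1%. At least 50% of their own length lay in control peaks for 85.03% of guide 1 and 86.3% of guide 2 members. Control-free guide peaks were few, 77 with guide 1 (4.43%) and 74 with guide 2 (4.11%), against 20.8% and 17.1% over chromosomes 1 to 22 and X. They were short, with median widths of 405 bp for guide 1 and 483.5 bp for guide 2. Control peaks covered 50.1% of the window bases, and how far this coverage sets the overlap was not tested. There were 16 regions where a guide 1 and a guide 2 peak overlapped and the control had none, 10 of them on chromosome 3, 5 on chromosome 4, 1 on chromosome 8 and 0 on chromosome 6. Regions were ranked by whichever guide scored lower, and the first lay at 50207104 to 50207784 on chromosome 4, with peaks of 368 bp in guide 1 and 539 bp in guide 2. The next were at 51532666 to 51533746 on chromosome 4 (1081 and 348 bp) and at 44478169 to 44479381 on chromosome 8 (1188 and 1131 bp).

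Peaks of the PURPL lines mostly met each other, but their bases coincided only in part. Guide 2 peaks met 83.2% of the guide 1 members (95% interval 81.4 to 84.9), and guide 1 peaks met 86.4% of the guide 2 members (84.7 to 87.9), against 55% and 68.6% over chromosomes 1 to 22 and X. By bases, 58.5% of the guide 1 length lay under guide 2 peaks, which cover 31.7% of the windows, and 67.8% of the guide 2 length lay under guide 1 peaks, which cover 36.7%. On chromosome 8, 66.7% of the guide 1 length and 78.4% of the guide 2 length were shared, and on chromosome 6 63.5% and 72.1%. On chromosome 3 the shares were 45.5% of guide 1 and 56.7% of guide 2, and on chromosome 4 56.02% and 60.2%. Of all bases under a peak of any list, 33.2% lay under all 3, 19.7% under guide 1 and the control, 13.1% under guide 2 and the control, and 19.7% under the control alone. Guide 1 alone held 6.41%, guide 2 alone 4.33% and both guides without the control 3.52%.

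The score is the authors' value for each peak, a whole number on a scale that the sources used here do not name. Control members ranked higher in their own list than guide members did in theirs. Median scores in the windows were 23 with guide 1, 21 with guide 2 and 28 in the control, while the whole lists had medians of 22, 22 and 21. The median member stood at percentile 52.1 of the guide 1 list, 43.6 of the guide 2 list and 68.8 of the control list. Chromosome 8 had the highest median in each list, 29 with guide 1, 24 with guide 2 and 33 in the control.

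The larger number of guide peaks depended on the low-scoring peaks. With peaks limited to a score of at least 22, the median of the 3 lists pooled, guide 1 had 87.04% and guide 2 78.7% of the control's number of peaks in the windows. Chromosome 8 was the exception, with 315 guide 1, 301 guide 2 and 278 control peaks, and on chromosome 3 the numbers were 240, 175 and 337. The smaller width stayed, with means of 2438 bp with guide 1, 2001 bp with guide 2 and 3904 bp in the control. The length left was then 54.4% with guide 1 and 40.4% with guide 2.

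Some places carried peaks of extreme score in all 3 lists at almost the same bases. On chromosome 3 the highest-scoring peak lay at 93470395 to 93470667 with guide 1 (score 1014), at 93470401 to 93470659 with guide 2 (318) and at 93470383 to 93470742 in the control (1373). It follows a 5.84 kb interval with no peak in any list. On chromosome 4 the highest peak lay at 49709314 to 49711872 with guide 1 (731), at 49709314 to 49711873 with guide 2 (443) and at 49709319 to 49711890 in the control (880). It borders a 51.5 kb interval without peaks in any list. Scores above 200 occurred in 3 guide 1, 2 guide 2 and 4 control members. Neither of these highest-scoring peaks was split in any list. At 360 bp in the control, the chromosome 3 peak could not have appeared split, because neighbouring peaks were never closer than 874 bp.

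The top peaks of chromosomes 6 and 8 scored lower than these. The highest score on chromosome 6 was 70 with guide 1 (58687635 to 58689446), 65 with guide 2 (59421554 to 59422010) and 56 in the control (59627768 to 59629162), at a different place in each list. On chromosome 8 the highest guide 1 peak, 149 at 44594384 to 44595465, stood beside scores of 53 with guide 2 and 89 in the control. The highest guide 2 peak, 143 at 45469875 to 45470227, stood beside 107 with guide 1 and 115 in the control. At the highest control peak, 214 at 45553592 to 45554019, guide 1 had 145 and guide 2 had 57.

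Outside the main domains joined across 20 kb lay 5 guide 1, 4 guide 2 and 25 control peaks on chromosome 8, and 0, 0 and 5 on chromosome 6. On chromosome 4 the numbers were 10 with guide 1, 4 with guide 2 and 7 in the control, and on chromosome 3 they were 2, 3 and 2. On chromosome 8, 20 control peaks (11816 bp in all, median width 395 bp) lay beyond the outermost guide peaks. On chromosome 6 there were 7 (3025 bp), and on chromosomes 3 and 4 there was 1 each. With the 3 lists pooled, the longest interval between neighbouring peaks was 400 kb on chromosome 6, from 59829831 to 60230202, and 226 kb on chromosome 8, from 46081450 to 46307427. The window ends outside the last peak are not counted in this.

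At the window edges no peak of any list was cut. The first member on chromosome 3 began 32.7 kb inside the edge with guide 1 (377 bp wide, score 16), 36.7 kb inside with guide 2 (453 bp, score 23) and 34.1 kb inside in the control (3000 bp, score 20). The last peak before that edge lay between 229.6 and 229.7 kb outside in each list, with scores of 34 with guide 1, 41 with guide 2 and 80 in the control. Closest to an edge was a guide 1 peak of 232 bp and score 36 on chromosome 4, 1.97 kb inside, with its next guide 1 peak of 1588 bp and score 19 lying 29.7 kb outside. Within 1 Mb left of the chromosome 3 window there were 22 guide 1, 16 guide 2 and 56 control peaks, and left of the chromosome 4 window 18, 19 and 31. Left of chromosomes 6 and 8 there were 2 and 2 with guide 1, 0 and 2 with guide 2, and 7 and 7 in the control. Left of no window did a guide have more peaks than the control. To the right, over all 4 windows, the flanks of 1 Mb held at most 2 guide peaks and 8 control peaks each, and on chromosome 4 guide 2 had 2 there and the control 1.

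Control peaks were wider in the 4 windows than in most other gene-free stretches, a value that the choice of windows partly used. The 6 stretches with more peaks in both guides, which are the 4 windows and those of chromosomes 15 and 20, had control mean widths from 2604 to 4678 bp. The 17 with fewer peaks in both guides had control mean widths from 776 to 1773 bp. Both quantities come from the same control list. The stretch of chromosome 20 had 465 guide 1, 473 guide 2 and 357 control peaks, with mean widths of 2382, 2102 and 3992 bp. That of chromosome 15 had 373 guide 1, 353 guide 2 and 321 control peaks, with mean widths of 1519, 1516 and 2779 bp.

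Wide control peaks were split elsewhere too. In the 19 other stretches together, 75.4% of 366 control peaks of at least 5000 bp held 2 or more guide 1 peaks (Wilson interval 70.7 to 79.5) and 75.96% held 2 or more guide 2 peaks (71.3 to 80.05), beside 79.1% and 82.3% in the windows. The number of wide peaks differed, as the windows held 316 of their 1450 control peaks at this width and the other stretches 366 of 10317. Whole control peaks without a guide peak made up 39.4% of the uncovered length with guide 1 and 40.4% with guide 2 in the other stretches, beside 10.3% and 11.7% in the windows. With 1 library per cell line and windows chosen from these lists, none of these differences was tested.

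**Figure D5:**
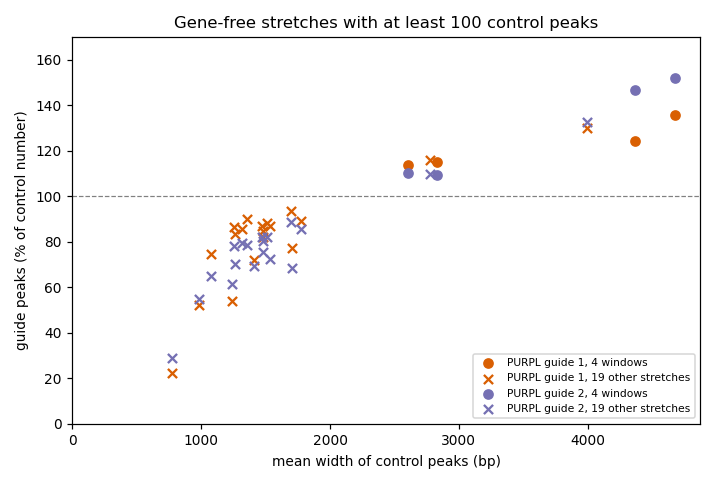
Number of guide peaks as a share of the control number (%) against the mean width of control peaks (bp) for 23 gene-free stretches, with 1 point per stretch and guide. Circles are the 4 windows and crosses the 19 other stretches, and all 6 stretches above the dashed line at 100% have control mean widths of at least 2604 bp.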

How the data were processed

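Per the submitters' processing notes, the authors' tools were MACS2 2.2.9.1, Bowtie2 2.4.2, deepTools 3.5.1 and GATK, and the builds named were GRCh38.p13 and hg38. Peak-calling settings and aligner options were not given in the sources used here. Deposited were 3 peak lists, 1 per cell line and not pooled, each named as H3K9me3 against the input of the same line. For every peak the authors gave its coordinates and a score. The names of single peaks use guide numbers that differ from the labels. Each list was matched to its sample by the name of the list, which gives the sample's title. Read depth is unknown, and no value is corrected for it. Multiply matching reads in satellite repeats may have been placed by rules not given here, which could move peaks among repeats.

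Peaks were assigned to windows by midpoint, and overlap required at least 1 bp. Covered length is the number of bases under peaks. Gene-free stretches are intervals of at least 1 Mb between neighbouring genes of the RefSeq table for GRCh38.p14, and those with at least 100 control peaks were compared. Shares carry 95% Wilson intervals. No test was run, as each group has 1 library. Coordinates are 1-based.

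Alternatives were a score limit, joining of peaks, other overlap, width and membership rules, and leaving out each window. Members, lists and measures were chosen with earlier results of these data known. Named peaks follow a rule: flanking genes, the 3 widest control peaks per window, the widest guide peaks, the highest score per list, the 3 widest control peaks without guide peak, and the 3 best regions of both guides without control peak. The overlap and break counts were tested on simulated guide lists cut from the 1450 control members, and 100% of them got the right number of pieces. The software was Python 3.11.15 with pandas 2.3.3, numpy 2.4.6, matplotlib 3.10.9 and scipy 1.17.1. No genome sequence was used here, so no peak sequence is printed.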

Additional observations from a re-analysis of the deposited data

How the results depend on the processing

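Over the 4 windows, the smaller width and shorter length of the PURPL lines kept their direction under the score limit and joining across up to 5000 bp. The same held for the membership rule and each left-out window. Of these settings, only the score limit turned the larger peak number. Joining across 10 and 20 kb was chosen after seeing the data and turned both the number and the width over the windows together. At 10 kb the width turned on neither chromosome 3 nor chromosome 4, and no guide had fewer domains there than the control. Over the 4 windows at 10 kb, guide 1 and guide 2 had 54.2% and 87.5% of the control number. The mean width was then 182.3% and 110.5% of the control and the length 98.7% and 96.7%. At 20 kb these were 40.9% and 36.4%, 242.3% and 271.4%, and 99.1% and 98.7%, and on chromosome 3 the guide 1 length was 100.05% of the control. At 20 kb each guide had 3 domains on chromosome 8 and the control 13. At scores of at least the pooled median of 22, guide 1 had 87.04% and guide 2 78.7% of the control's peak number, the reverse of the 119.8% and 124.3% over all members. There the mean width was 62.5% and 51.3% of the control, the length 54.4% and 40.4%, the share of control peaks overlapped 64.2% and 56.97%, the share of wide control peaks split 42.9% and 37.99%, and the share of guide peaks wholly inside a control peak 44.7% and 51.74%. The cause was not tested, though fewer peaks enter by construction. With peaks within 1000 bp merged, the width was 61.3% and 50.2% and the length 74.5% and 64.5%. With peaks within 5000 bp merged, the number was 244.2% and 307.0%, the width 37.7% and 28.8%, the length 92.1% and 88.5%, and the share of the 43 merged control domains overlapped 58.1% for each guide. Requiring 50% of the control peak to be covered gave 61.7% and 49.4% overlapped. A width of at least 10000 bp gave 92.4% and 96.2% split, and 50% of the guide peak inside gave 85.03% and 86.3%. Membership by any overlap changed no value.

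With each window left out in turn, the number ranged from 117.1% to 122.6% of the control with guide 1 and from 117.8% to 131.1% with guide 2. Width ranged from 59.3% to 62.1% and from 48.9% to 51.8%, and length from 70.2% to 75.7% and from 60.98% to 66.8%. The overlapped share ranged from 84.6% to 87.3% and from 80.3% to 84.7%, the split share from 75.2% to 84.5% and from 78.9% to 83.6%, and the inside share from 47.5% to 49.2% and from 51.5% to 56.1%. No paired analysis was possible because each cell line has 1 H3K9me3 library and no test was run. Unknown depth limits every comparison of peak numbers and widths between lists.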
